A study of Mus musculus with 1814 samples.

Results

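Light zone germinal center B cells that carried Myc mRNA were set against light zone cells in which no Myc was counted. The single cells were labelled Dec+, light zone and 12 h and came from 3 sequencing experiments, numbered 1, 3 and 4. They were selected on their Myc count. A cell was Myc-positive when Myc reached 50 CPM, that is, counts of a gene scaled to 1000000 counts of the cell, and Myc-negative when its Myc count was 0. The 63 Myc-positive cells comprised 40 cells of experiment 1, 15 of experiment 3 and 8 of experiment 4. The Myc-negative cells numbered 37, 41 and 41 on the 3 plates of experiment 1, 29 in experiment 3 and 18 in experiment 4. Both classes made up 17.2% of the 1328 cells of the series that could be matched to a label group, out of 1814 wells. In the 9 remaining Dec+ light zone cells of 12 h Myc was counted but below the threshold, and they entered neither class. Myc itself is described without a test, since its counts chose the members.

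MYC is a transcription factor that dimerizes with MAX and binds E-boxes, short DNA motifs that are frequent near the start of genes for ribosome production, nucleotide synthesis and other growth functions. In the germinal center, B cells in the light zone that obtain antigen and signals from T follicular helper cells express Myc for a short time. These cells grow and enter the cell cycle before they move to the dark zone to divide.

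Mouse germinal center cells were index-sorted into plates, 1 cell per well. Their RNA was read along its whole length by SmartSeq2, which adds no molecular identifiers, so reads are not independent molecules. Both classes shared the label Dec+, the zone and the time of 12 h, and were split by their Myc count alone. The labels do not say what Dec stands for, and give no genotype, age or animal for these cells. The experiment therefore served as replicate. The p values set the ratio of the classes against its spread between experiments, estimated in part from other genes. That spread may be technical. Labels and RNA were compared for the zone in experiments 3 and 4. Experiment 1, which gave 40 of the 63 Myc-positive cells, had no Dec+ dark zone cells of 12 h, so its zone label was not checked this way. The Dec+ light zone cells of 12 h had 3342 and 3561 CPM of Cd83, a light zone marker, in experiments 3 and 4, against 950.3 and 2161 CPM in dark zone cells of the same label and time. Cd86, another light zone marker, had 334 and 429 CPM in these light zone cells and 177.8 and 174.1 CPM in the dark zone cells. At least 3 of 5 B cell markers were detected in all 63 Myc-positive cells and in all but 3 Myc-negative cells. Cxcr4, the chemokine receptor of the dark zone, was sparse in the RNA of both zones, with 1.09 and 58.3 CPM in the light zone and 16.4 and 66 CPM in the dark zone.

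Myc-positive cells were deeper and richer in detected genes. The median total count was 585045, 259527 and 445702 in Myc-positive cells of experiments 1, 3 and 4, and 416175, 225918 and 300379 in Myc-negative cells. After every cell was thinned to 66519 counts, the median number of genes detected was still 2968, 3571 and 2800.5 in Myc-positive cells, and 2247, 2216 and 1672 in Myc-negative cells. The share of reads from mitochondrial genes had medians of 8.94, 1.42 and 4% in Myc-positive cells and 10.9, 1.45 and 4.03% in Myc-negative cells. CPM give a share of a cell's counted RNA, so a difference in the total RNA of a cell was not measured.

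Myc, on chromosome 15 (bases 61985341 to 61990361, GRCm38), had a median of 354 CPM in the Myc-positive cells of experiment 1, 348 CPM in experiment 3 and 387 CPM in experiment 4. Single cells spanned 50.3 to 1863 CPM. In the summed counts of the class this came to 702, 623 and 450.2 CPM. The 3 Myc-positive cells just inside the threshold had 50.3, 62.2 and 62.7 CPM, from 30, 12 and 10 counts. The 3 cells just outside it had 43.4, 32.5 and 31.7 CPM, of which the last 2 rest on 8 and 6 counts. A count of 0 allows up to 3 counts, which in the Myc-negative cells corresponds to a median of 7.21 CPM in experiment 1, 13.3 CPM in experiment 3 and 9.99 CPM in experiment 4. The highest such limit of any Myc-negative cell was 45.1 CPM, so no Myc-negative cell was too shallow for Myc at 50 CPM by this measure. Limits and intervals here cover counting error only.

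Myc-positive cells were a minority of the Dec+ light zone cells of 12 h in every experiment. The share was 24.1% (40 cells, interval 17.8 to 31.3%) in experiment 1, 32.6% (15 of 46 cells, interval 19.5 to 48%) in experiment 3 and 30.8% (8 of 26 cells, interval 14.3 to 51.8%) in experiment 4, with exact 95% binomial intervals that overlap. Among plates the share spanned 0% of 5 cells to 66.7% of 3 cells, both in experiment 4. Light zone cells labelled Dec- in experiment 1 gave 16.2% (13 of 80 cells, interval 8.95 to 26.2%), an interval that overlaps that of the Dec+ cells of the same experiment. Dark zone cells of 12 h gave 14% (6 of 43 cells, interval 5.30 to 27.9%) in experiment 3 and 16.4% (9 of 55 cells, interval 7.77 to 28.8%) in experiment 4. Both shares were below those of the light zone cells of 12 h, with intervals that overlap in both experiments. Dark zone cells of 30 h in experiment 1 gave 9.52% of 42 cells. At 30, 46 and 60 h the dark zone shares were 16.1%, 19.2% and 8.70% in experiment 3, and 23.9%, 14.8% and 6.41% in experiment 4. In the light zone they were 22.7%, 36.4% and 23.8% in experiment 3 over 22, 11 and 21 cells. In experiment 4 they were 45.5% of 22 cells, 23.5% of 17 cells and 0 of 5 cells, with an exact interval of 0 to 52.2%. The cells of experiment 5, labelled by genotype, had 9.09% of 22 TA, 19.7% of 61 KO and 24.4% of 41 WT light zone cells above the threshold, and 4.95%, 9.68% and 2.44% of TA, KO and WT dark zone cells. No share was tested, since a group had 1 value in an experiment and Myc was the criterion.

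**Figure D1:**
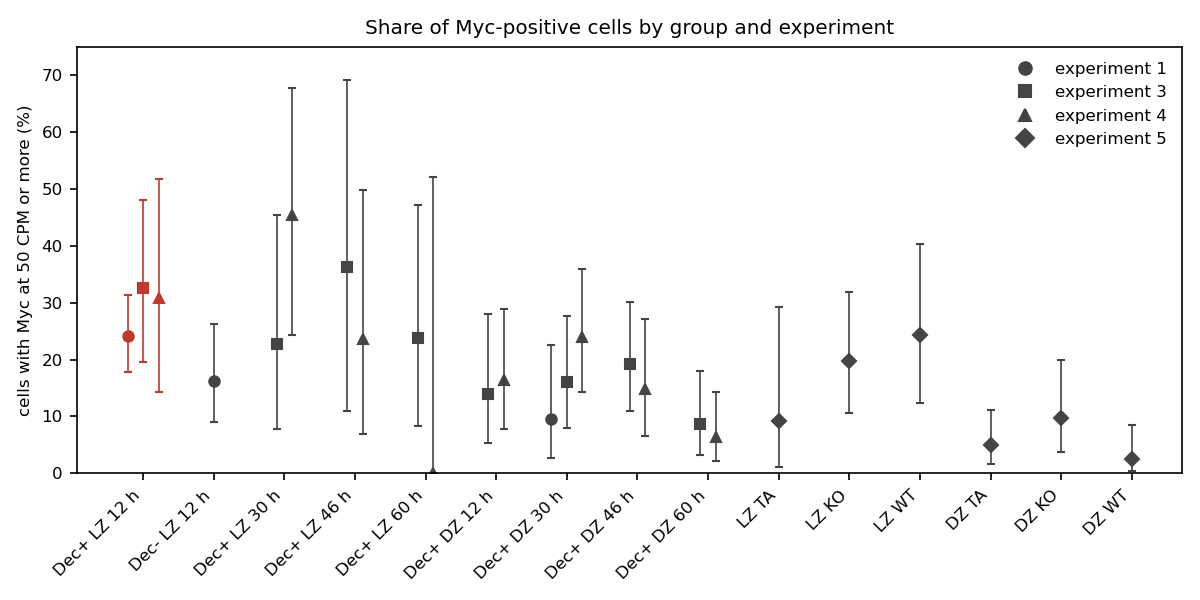
Share of cells (%) with Myc at 50 CPM or more for each label group and experiment. Points are experiments, bars are exact 95% binomial intervals over cells, and the red points are the Dec+ light zone (LZ) cells of 12 h, which lie at 24.1%, 32.6% and 30.8%, above the 12 h dark zone (DZ) cells at 14% and 16.4%.

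Beyond Myc itself, gene lists were described by the median log2 ratio of Myc-positive over Myc-negative sums (CPM). It was above 0 in all 3 experiments for nucleolar, nucleotide, one-carbon, glycolytic and chaperone lists. For MHC class II genes, B cell markers and growth arrest genes it was below 0 in all 3. These are descriptions of lists and levels, because no single gene passed the adjusted edgeR test. Counts were summed over the cells of a class in each experiment and compared with the quasi-likelihood test of edgeR, with the experiment as block. Of 8944 genes tested, 0 had a Benjamini-Hochberg adjusted p under 0.05 (0% called), and the lowest adjusted p was 0.157. Without experiment 4, 2 genes passed, Vim and Apoe, both lower in Myc-positive sums. An unadjusted p under 0.05 was reached by 534 genes, of which 280 were lower in the Myc-positive sums (3.13% of genes tested) and the others higher (2.84%). DESeq2 on the same sums called 359 genes higher (4.01%) and 444 lower (4.96%). The median log2 ratio of Myc-positive over Myc-negative cells over all genes was -0.047. A gene was higher in the Myc-positive sum of every experiment in 14.5% of cases and lower in every experiment in 16.1%. List counts below are to be read against these shares.

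Ribosome biogenesis genes lay higher in Myc-positive cells. All 65 members of the list were tested, and their median log2 ratio was 0.69, with medians of 0.67, 0.92 and 0.62 in experiments 1, 3 and 4. Of the 65 genes, 35 were higher in all 3 experiments and 0 were lower in all 3. At unadjusted p under 0.05, 21 were higher and 0 lower. With every cell thinned to equal counts the median was 0.79. Ncl, which encodes nucleolin, a nucleolar protein of rRNA transcription and processing, had 1736, 2146 and 2338 CPM in the Myc-positive sums of experiments 1, 3 and 4, against 859, 986 and 914 CPM in the Myc-negative sums. All 3 Myc-positive sums lay above all 3 Myc-negative sums, a pattern that 5.23% of genes showed. The log2 ratio was 1.17 ± 0.16 (SE, edgeR unadjusted p = 0.000256, adjusted p = 0.45). Npm1, the nucleolar chaperone nucleophosmin, had 2397, 4783 and 6186 CPM in Myc-positive sums, against 1398, 2333 and 1933 CPM in Myc-negative sums, again without overlap, at a log2 ratio of 1.17 ± 0.21 (edgeR adjusted p = 0.45). Nop58, a core protein of box C/D snoRNPs, had 658, 453 and 664 CPM in Myc-positive sums, against 394, 214.5 and 400.1 CPM in Myc-negative sums (0.85 ± 0.19), and these sums did not overlap either. In the 18 Myc-positive and 83 Myc-negative cells of G1 its ratio was -0.96, the opposite direction. Pa2g4, a growth-related protein of pre-ribosomes, had 859, 1070.0 and 975 CPM in Myc-positive sums, against 486, 874 and 542 CPM in Myc-negative sums (0.66 ± 0.20). Its highest Myc-negative sum, in experiment 3, exceeded the lowest Myc-positive sum.

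E-boxes were looked up in the promoter windows of the RefSeq table, which run from 250 bases before to 50 bases after a gene's start in GRCm38.p6. The motif searched was CACGTG, which is its own reverse complement, so 1 search covers both strands. It occurred in 8.09% of all 27025 genes of that table and in 12.7% of the 7117 tested genes that it holds. Among genes at unadjusted p under 0.05 that the table holds, 38 higher genes (18%) and 25 lower genes (11.5%) had it. Among ribosome biogenesis genes it was 22.4% of 58. These shares are descriptions, and a match is not a binding site. Of the 35 genes of a panel chosen by name, 22 were in the table and 8 held the motif. Of these 8, Cdk4, which encodes a G1 kinase, held the most copies (4) and is shown with Hspd1 (1 copy) and with Ncl, which has none in its window. The windows lie at chr10:127063285-127063584 (plus strand), chr1:55088194-55088493 (minus strand) and chr1:86359406-86359705 (minus strand) and are written 5′ to 3′ along the gene, with the motif in capitals.
Cdk4: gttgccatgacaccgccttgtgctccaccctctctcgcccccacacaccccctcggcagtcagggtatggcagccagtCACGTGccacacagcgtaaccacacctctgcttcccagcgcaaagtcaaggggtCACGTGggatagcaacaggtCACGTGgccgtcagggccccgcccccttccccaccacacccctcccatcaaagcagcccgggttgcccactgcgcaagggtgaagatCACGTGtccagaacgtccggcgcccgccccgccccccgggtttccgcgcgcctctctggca
Hspd1: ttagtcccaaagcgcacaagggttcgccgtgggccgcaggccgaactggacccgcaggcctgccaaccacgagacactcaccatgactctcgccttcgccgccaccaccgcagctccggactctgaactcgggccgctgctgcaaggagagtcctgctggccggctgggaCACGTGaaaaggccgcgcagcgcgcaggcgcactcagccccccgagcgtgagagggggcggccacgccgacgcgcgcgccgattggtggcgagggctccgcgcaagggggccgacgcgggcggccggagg
Ncl: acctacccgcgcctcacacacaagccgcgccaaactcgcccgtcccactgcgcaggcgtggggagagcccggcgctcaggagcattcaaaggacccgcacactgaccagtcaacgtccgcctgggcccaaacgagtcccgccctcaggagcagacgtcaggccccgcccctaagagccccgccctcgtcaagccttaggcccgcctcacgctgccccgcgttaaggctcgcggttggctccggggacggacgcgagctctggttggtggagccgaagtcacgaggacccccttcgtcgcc

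Genes of nucleotide and one-carbon metabolism lay higher as well. The 17 tested genes of purine and pyrimidine synthesis (of 18) had a median log2 ratio of 0.62, 11 of them were higher in all 3 experiments, and 6 reached an unadjusted p under 0.05. Impdh2, the rate-limiting enzyme of guanine nucleotide synthesis, had 521, 715 and 563 CPM in Myc-positive sums, against 487, 412 and 346 CPM in Myc-negative sums (0.53 ± 0.22). Paics, of the purine pathway, had a log2 ratio of 0.57 ± 0.26, and the nucleoside diphosphate kinases Nme1 and Nme2 had 0.40 ± 0.23 and 0.61 ± 0.25. Nme1 and Nme2 are near-identical neighbours, so their reads may be split between them. Cad, the trifunctional enzyme that starts pyrimidine synthesis, had 108.5, 64.7 and 48.9 CPM in Myc-positive sums, against 77.6, 33.2 and 39.5 CPM in Myc-negative sums (0.59 ± 0.50, edgeR unadjusted p = 0.281). The 12 genes of serine and one-carbon metabolism had a median of 0.71 with 8 higher in all 3 experiments and 5 at unadjusted p under 0.05. Shmt2, the mitochondrial serine hydroxymethyltransferase, had 717, 518 and 409.7 CPM in Myc-positive sums, against 263.3, 291 and 152.3 CPM in Myc-negative sums. Its sums did not overlap, and its log2 ratio was 1.24 ± 0.23 (edgeR adjusted p = 0.45). Mat2a, which makes S-adenosylmethionine, had 664, 897 and 1668 CPM in Myc-positive sums, against 263.2, 573 and 510.3 CPM in Myc-negative sums (1.24 ± 0.25). Phgdh, the first enzyme of serine synthesis, had a log2 ratio of 0.71 ± 0.22, and Ahcy, which clears S-adenosylhomocysteine, 0.50 ± 0.32.

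Among polyamine genes, Srm and Odc1 of synthesis lay higher and Sat1 of breakdown lay lower. Srm, which encodes spermidine synthase, had 312, 733 and 352 CPM in the Myc-positive sums of experiments 1, 3 and 4, against 72.1, 257.5 and 115.01 CPM in the Myc-negative sums. The groups did not overlap, and the log2 ratio was 1.75 ± 0.24 (edgeR unadjusted p = 0.00031, adjusted p = 0.45). Odc1, the rate-limiting ornithine decarboxylase, had 64.4, 435 and 280.3 CPM in Myc-positive sums, against 56.9, 256.5 and 71.4 CPM in Myc-negative sums (0.96 ± 0.41), higher in every experiment though its groups overlapped across experiments. Eif5a, the translation factor that carries the polyamine-derived residue hypusine, had a log2 ratio of 0.49 ± 0.16. Sat1, the acetyltransferase that starts polyamine breakdown, had 44.4, 139.1 and 289 CPM in Myc-positive sums, against 130.7, 518 and 1279 CPM in Myc-negative sums (-1.86 ± 0.22, edgeR adjusted p = 0.403). Oaz1, the antizyme that inhibits Odc1, had -0.42 ± 0.20. Over all 11 tested genes of the list (of 12) the median was 0.50, with 7 higher and 1 lower in all 3 experiments.

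The 18 tested glycolysis and glucose uptake genes (of 19) had a median of 0.58, with 7 higher and 0 lower in all 3 experiments. Ldha, lactate dehydrogenase A, had 2847, 3317 and 2177 CPM in Myc-positive sums, against 1952, 1732 and 1286 CPM in Myc-negative sums. No sums overlapped, at a log2 ratio of 0.75 ± 0.14 (edgeR adjusted p = 0.45). Pkm, pyruvate kinase, had 1562, 1963 and 1086 CPM in Myc-positive sums, against 1066, 1076 and 578 CPM in Myc-negative sums (0.78 ± 0.16), and Aldoa, aldolase A, had a log2 ratio of 0.54 ± 0.21. Gapdh was nearer to equal, at 0.22 ± 0.15. Amino acid transporters had a median of 0.59 over 9 tested genes of 10, with 0.78, 0.69 and -0.12 in experiments 1, 3 and 4, and 3 were higher in all 3. Slc3a2, the heavy chain shared by several transporters, had 235.1, 359.7 and 285 CPM in Myc-positive sums, against 91.3, 190.2 and 165.8 CPM in Myc-negative sums (1.03 ± 0.26). Its light chain Slc7a5 was sparse, with 16.5, 26.1 and 5.73 CPM in Myc-positive sums, against 2.6, 4.81 and 13.5 CPM in Myc-negative sums (1.45 ± 1.79). The glutamine and neutral amino acid carriers Slc38a1 and Slc1a5 had log2 ratios of -0.056 ± 0.28 and -0.10 ± 0.27, and the cationic carrier Slc7a1 had 0.81 ± 0.63.

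Chaperonins and mitochondrial import factors lay higher in Myc-positive cells throughout the list. All 30 members had a log2 ratio above 0, the median was 0.52, 22 were higher in all 3 experiments, and 12 reached an unadjusted p under 0.05. Hspd1, the mitochondrial chaperonin HSP60, had 953, 823 and 1066 CPM in the Myc-positive sums of experiments 1, 3 and 4, against 504, 389.7 and 374 CPM in the Myc-negative sums. These groups did not overlap, and the log2 ratio was 1.17 ± 0.20 (edgeR adjusted p = 0.45). Hspa8, the constitutive cytosolic HSP70, had 6334, 7462 and 5782 CPM in Myc-positive sums, against 3896, 4726 and 3409 CPM in Myc-negative sums (0.71 ± 0.12), and Hsp90ab1, the constitutive HSP90, had a log2 ratio of 0.50 ± 0.14. Cct5 and Cct8, subunits of the cytosolic chaperonin that folds actin and tubulin, had 0.51 ± 0.22 and 0.52 ± 0.19. Translation initiation factors had a median of 0.51 over 19 genes, with 11 higher and 1 lower in all 3 experiments. The mRNA helicase Eif4a1 had 893, 1244 and 656 CPM in Myc-positive sums, against 547, 1019 and 318 CPM in Myc-negative sums (0.68 ± 0.21). Eif3a, Eif4a3 and Eif5 had log2 ratios of 0.63 ± 0.25, 0.48 ± 0.21 and 0.085 ± 0.19. The 20 aminoacyl tRNA synthetases had a median of 0.45, 11 of them higher in all 3 experiments, with 0.71 ± 0.21 for Eprs, 0.57 ± 0.23 for Gars, 0.20 ± 0.23 for Dars and 0.084 ± 0.23 for Vars.

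Genes of the ribosome's own proteins stood near the median of all genes. The median log2 ratio of 86 tested cytosolic ribosomal protein genes (of 90) was -0.034, with 7 higher and 14 lower in all 3 experiments. Many ribosomal protein genes have processed pseudogenes that can take part of their reads. Mitochondrial ribosomal proteins (78 tested) had a median of 0.18, nuclear respiratory chain genes (76 of 91) 0.02 and proteasome genes (46 of 48) 0.18. Higher in all 3 experiments were 17 of 78 mitochondrial ribosomal, 17 of 76 respiratory chain and 15 of 46 proteasome genes. Lower in all 3 were 5, 10 and 3 genes of these lists, in the same order.

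**Figure D2:**
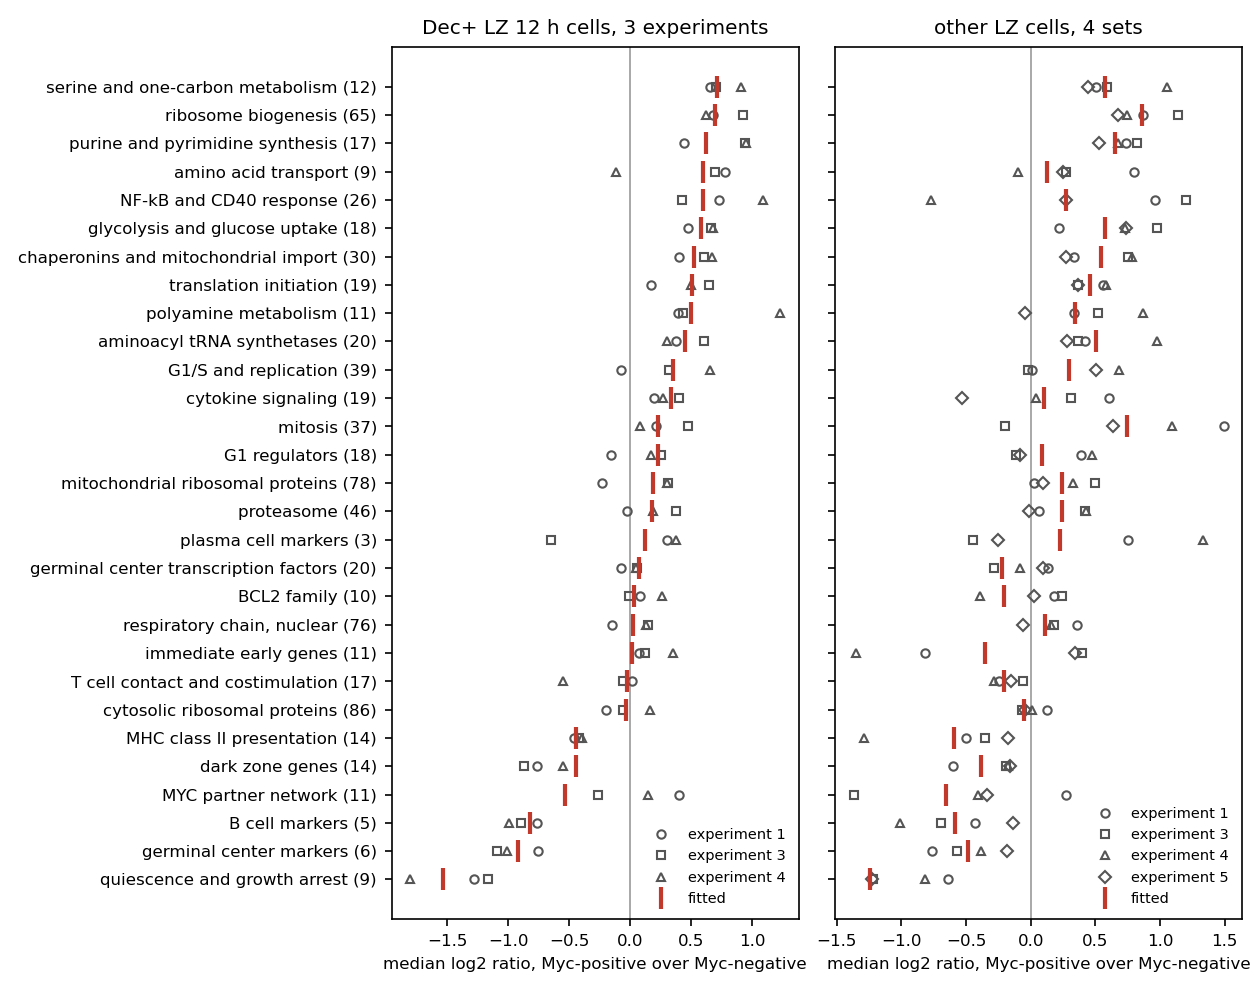
Median log2 ratio of Myc-positive over Myc-negative sums for each gene list (number of genes tested in the Dec+ light zone 12 h cells in brackets). Open symbols are experiments and red bars the medians of the fitted ratios. At left the 3 experiments of the Dec+ light zone (LZ) cells of 12 h, at right the other LZ cells in 4 sets. Ribosome biogenesis lies at 0.69 at left and 0.86 at right, and MHC class II presentation at -0.45 and -0.59.

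CD40 ligand of T cells signals to B cells through CD40 and NF-kB. Known targets of this pathway had a median above 0 in the Dec+ cells of 12 h, though less evenly in the other light zone cells described further on. Over 26 tested genes (of 28) the median was 0.59, with 0.73, 0.43 and 1.08 in experiments 1, 3 and 4. Of these, 9 were higher in all 3 experiments and 0 lower, and 7 reached an unadjusted p under 0.05. Traf1, an adaptor of TNF receptors induced by NF-kB, had 305, 391.96 and 479 CPM in the Myc-positive sums of experiments 1, 3 and 4, against 131.1, 88.8 and 113.4 CPM in the Myc-negative sums. Every Myc-positive sum was above every Myc-negative sum, at a log2 ratio of 1.82 ± 0.29 (edgeR adjusted p = 0.45). Batf, a transcription factor of activated B cells, had 138.98, 242.2 and 180.7 CPM in Myc-positive sums, against 21.2, 79.8 and 61.4 CPM in Myc-negative sums (1.96 ± 0.41), also without overlap. Icam1, an adhesion molecule that contacts T cell LFA-1, had 283, 308 and 514 CPM in Myc-positive sums, against 119.7, 112.98 and 130.1 CPM in Myc-negative sums (1.56 ± 0.27), and Nfkbia, the inhibitor that NF-kB induces, had 492, 785 and 814 CPM in Myc-positive sums, against 346, 523 and 249.03 CPM in Myc-negative sums (0.93 ± 0.30). Il4i1, an amino acid oxidase, had a log2 ratio of 0.97 ± 0.24. Of the NF-kB subunits, Nfkb1 had 1.10 ± 0.46 and Nfkb2 0.51 ± 0.27, but in S phase cells Nfkb1 had -0.66. Bcl2a1b, an antiapoptotic target that belongs to a family of near-identical copies, had 0.26 ± 0.33. Irf4 had 94.9, 16.8 and 36.2 CPM in Myc-positive sums, against 42.2, 27.5 and 19 CPM in Myc-negative sums (0.49 ± 0.79), higher in experiments 1 and 4 only. In cells that the authors placed in G1, where 18 Myc-positive cells remained, the median of this list was 0.094, and in S phase cells it was 1.19.

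Surface molecules of T cell contact had a median of -0.025 over 17 tested genes (of 21), with 3 higher and 5 lower in all 3 experiments. Cd83 had 2074, 2822 and 4349.9 CPM in Myc-positive sums, against 2132, 3843 and 3092 CPM in Myc-negative sums (0.0059 ± 0.21), so its mRNA went opposite ways in experiments 3 and 4. Cd86, the costimulatory ligand of CD28, had 225.6, 217.1 and 207.9 CPM in Myc-positive sums, against 229.4, 424 and 560.0 CPM in Myc-negative sums. It was lower without overlap, at -0.80 ± 0.32 (edgeR unadjusted p = 0.0433, adjusted p = 0.823). Cd40, the receptor for CD40 ligand, had 200.9, 358 and 457 CPM in Myc-positive sums, against 122.5, 339.8 and 75.2 CPM in Myc-negative sums (1.10 ± 0.52). The IL-21 receptor gene Il21r and the BAFF receptor gene Tnfrsf13c had log2 ratios of 0.37 ± 0.22 and -0.025 ± 0.18. Immediate early genes had a median of 0.012, and 11 of 23 were tested. Of its members of highest level, Junb, a subunit of the AP-1 transcription factor, had 193.3, 469 and 559.7 CPM in Myc-positive sums, against 107.1, 265 and 101.9 CPM in Myc-negative sums. It was higher in each experiment (1.36 ± 0.40, edgeR unadjusted p = 0.0136, adjusted p = 0.708). Zfp36l1 and Zfp36, which bind AU-rich mRNAs, had 0.023 ± 0.36 and 0.012 ± 0.52, and the phosphatase gene Dusp2 had -0.09 ± 0.35. Egr2, induced by antigen receptor signals, had 36.6, 11.4 and 42.5 CPM in Myc-positive sums, against 2.58, 9.47 and 0 CPM in Myc-negative sums, sparse counts that did not overlap (3.98 ± 2.57). Egr1 had 61, 59.7 and 41.6 CPM in Myc-positive sums, against 16.4, 51.1 and 0 CPM in Myc-negative sums (2.62 ± 1.88), and Egr3 was counted in the Myc-positive sum of experiment 1 alone, at 3.47 CPM.

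**Figure D3:**
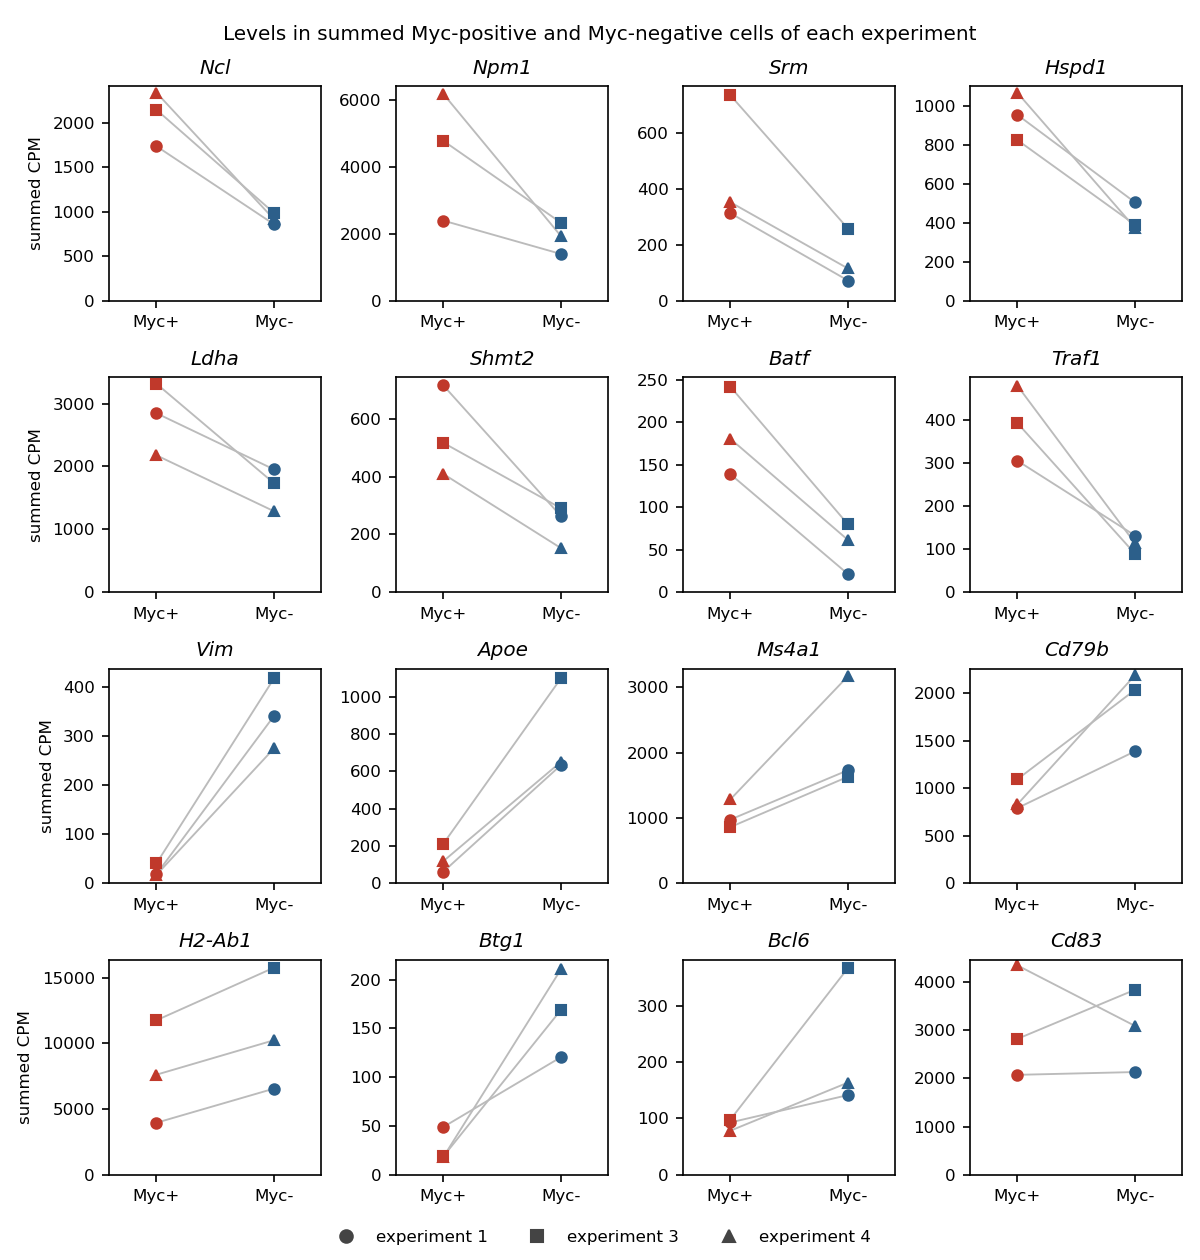
Level (CPM of the summed counts) of 16 genes in Myc-positive cells (red, left) and Myc-negative cells (blue, right) of experiments 1, 3 and 4. Lines join the sums of an experiment. Ncl, Npm1, Srm, Hspd1, Ldha, Shmt2, Batf and Traf1 are higher in every experiment, Vim, Apoe, Ms4a1, Cd79b, H2-Ab1, Btg1 and Bcl6 are lower in every experiment, and Cd83 crosses.

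Cell cycle lists had smaller medians than the growth lists above. D-type cyclins with CDK4 and CDK6 drive passage through G1. Ccnd2, cyclin D2, had 191.4, 190.9 and 78.4 CPM in Myc-positive sums, against 39.2, 43 and 78 CPM in Myc-negative sums (1.52 ± 0.58, edgeR unadjusted p = 0.0378, adjusted p = 0.812). Its sums were nearly equal in experiment 4. Ccnd3, cyclin D3, had 578, 570.4 and 525 CPM in Myc-positive sums, against 609, 565 and 333 CPM in Myc-negative sums (0.20 ± 0.23), and Ccnd1 was at or near 0, with at most 5.92 CPM in any sum. Cdk4 had 469.8, 828 and 597 CPM in Myc-positive sums, against 385, 512 and 365 CPM in Myc-negative sums (0.57 ± 0.19), higher in each experiment, and Cdk6 had 130.5, 399 and 352 CPM in Myc-positive sums, against 100.8, 123.5 and 115.7 CPM in Myc-negative sums (1.23 ± 0.36), without overlap. Cdk2, the kinase of cyclins E and A, had a log2 ratio of 0.057 ± 0.35. The inhibitors Cdkn1a and Cdkn1b were sparse, with at most 0.170 and 16.1 CPM in any sum. The list of G1 regulators had a median of 0.23 over 18 tested genes (of 21), and of -0.095 without experiment 3.

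G1/S and replication genes had a median of 0.35 over 39 genes, with -0.073, 0.32 and 0.66 in experiments 1, 3 and 4 and 10 higher and 4 lower in all 3. Of the replicative helicase, Mcm6 had 1370.3, 866 and 994 CPM in Myc-positive sums, against 887, 512 and 629.9 CPM in Myc-negative sums (0.69 ± 0.16), while Mcm3, Mcm5 and Mcm7 had log2 ratios of 0.64 ± 0.36, 0.57 ± 0.27 and -0.088 ± 0.23. The 37 mitosis genes had a median of 0.23, 10 of them higher and 2 lower in all 3 experiments. Ccnb1, cyclin B1, had 260.1, 397 and 323 CPM in Myc-positive sums, against 156.2, 168.7 and 146.04 CPM in Myc-negative sums (1.04 ± 0.25), without overlap. Mki67, the proliferation marker, had 269.8, 216.5 and 296 CPM in Myc-positive sums, against 292, 220.3 and 243.1 CPM in Myc-negative sums (0.052 ± 0.24), and Top2a and Ccna2 had 0.29 ± 0.44 and 0.24 ± 0.23.

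More Myc-positive than Myc-negative cells were in S phase and fewer in G1 in every experiment, by the phases of the authors' table. In S phase were 52.5%, 60% and 50% of the Myc-positive cells of experiments 1, 3 and 4, against 42%, 31% and 16.7% of the Myc-negative cells. In G1 were 27.5%, 26.7% and 37.5% of the Myc-positive cells, against 46.2%, 55.2% and 66.7% of the Myc-negative cells. The mean difference was 24.3 percentage points for S and -25.5 points for G1. An exact two-sided sign-flip permutation test over experiments gave p = 0.25 for each, the smallest value that 3 experiments allow. G2M shares were 20%, 13.3% and 12.5% in Myc-positive and 11.8%, 13.8% and 16.7% in Myc-negative cells, with a mean difference of 1.20 points (exact permutation p = 1). Phases come from the same RNA as the gene levels, and in the 18 Myc-positive and 83 Myc-negative G1 cells the median of ribosome biogenesis genes was 0.33, against 1.09 in the 34 and 62 S phase cells. Glycolysis genes had 0.63 within G1 and 0.46 within S, and MHC class II genes -0.48 and -0.31.

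**Figure D4:**
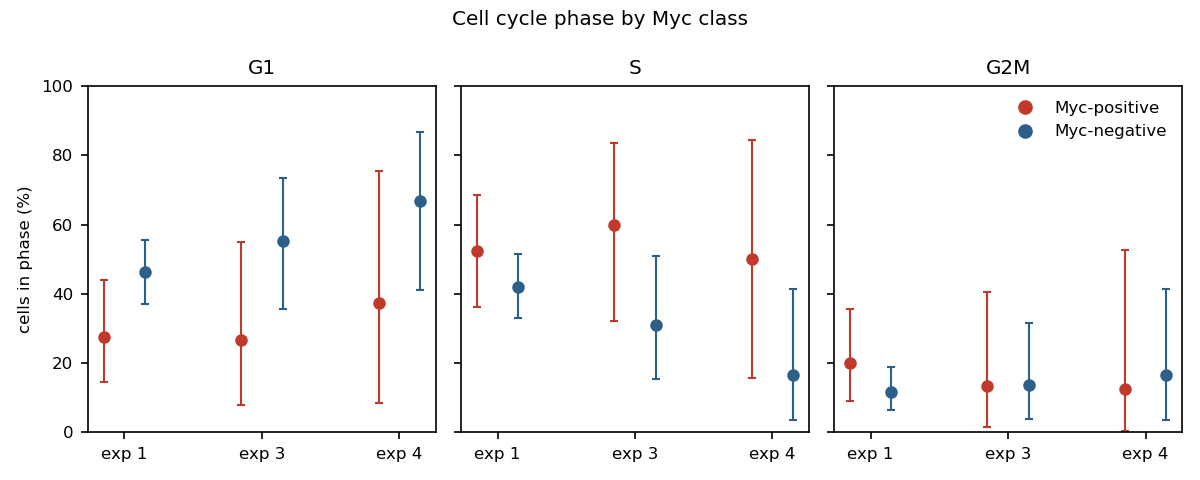
Share of cells (%) in the G1, S and G2M phase of the authors' table, for Myc-positive cells (red, left of each pair) and Myc-negative cells (blue) of experiments 1, 3 and 4, with exact 95% binomial intervals over cells. S phase shares are 52.5%, 60% and 50% in Myc-positive cells, against 42%, 31% and 16.7% in Myc-negative cells.

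Genes of antigen presentation and of the B cell receptor lay lower in Myc-positive cells. MHC class II presentation genes had a median log2 ratio of -0.45 over 14 genes, close to equal in the experiments (-0.46, -0.42 and -0.40), with 10 lower and 0 higher in all 3. H2-Ab1, the beta chain of the I-A molecule, had 3946, 11744 and 7604 CPM in the Myc-positive sums of experiments 1, 3 and 4, against 6545, 15752 and 10229 CPM in the Myc-negative sums. It was lower in each experiment (-0.52 ± 0.12, edgeR adjusted p = 0.582). Cd74, the invariant chain, had 3844, 7937 and 5503 CPM in Myc-positive sums, against 5632, 10576 and 7473 CPM in Myc-negative sums (-0.46 ± 0.11), and H2-Aa and H2-Eb1 had -0.55 ± 0.13 and -0.43 ± 0.14. The 5 B cell markers had a median of -0.82, and 4 of them were lower in all 3 experiments. Ms4a1, which encodes CD20, had 975, 860.1 and 1284 CPM in Myc-positive sums, against 1729.8, 1630.1 and 3168 CPM in Myc-negative sums (-1.01 ± 0.16, edgeR adjusted p = 0.45). The B cell receptor subunits Cd79b and Cd79a had -1.03 ± 0.17 and -0.82 ± 0.17. The summed level of the 5 markers was 3318 to 3802 CPM in Myc-positive sums and 5005 to 7899 CPM in Myc-negative sums.

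Several germinal center and dark zone genes lay lower too. Bcl6, the transcriptional repressor that defines germinal center B cells, had 92.8, 98 and 78.1 CPM in Myc-positive sums, against 141.5, 368 and 163.8 CPM in Myc-negative sums, without overlap, as in 5.74% of genes for lower sums (-1.19 ± 0.37, edgeR adjusted p = 0.731). S1pr2, the receptor that retains cells in the follicle, had -0.79 ± 0.25, Gcsam -0.34 ± 0.27 and Mef2b, a transcription factor of germinal center B cells, -0.10 ± 0.35. The 6 germinal center markers had a median of -0.92, and 4 were lower in all 3 experiments. Dark zone genes had a median of -0.45 over 14 genes, with 6 lower and 2 higher in all 3. The median of this list was -1.58 within G1 cells and -0.088 within S phase cells, and -0.14 without experiment 3. Anxa2, annexin A2, had 102.5, 80.5 and 169.6 CPM in Myc-positive sums, against 226.7, 347 and 511 CPM in Myc-negative sums (-1.61 ± 0.29), but within S phase cells its ratio was 0.11. Hmces, which shields abasic sites, had a log2 ratio of -3.10 ± 1.12. Cxcr4 was sparse, with 1.49, 2.28 and 9.96 CPM in Myc-positive sums, against 10.8, 0.451 and 87 CPM in Myc-negative sums (-1.65 ± 1.91). Foxo1, a dark zone transcription factor, had 36.6, 69.3 and 0 CPM in Myc-positive sums, against 31.7, 70.9 and 112.1 CPM in Myc-negative sums (-1.46 ± 1.94). Germinal center transcription factors as a list had a median of 0.075 over 20 genes. Its members of highest level, Klhl6, Irf8, Mef2c and Pou2af1, had log2 ratios of 0.29 ± 0.31, -0.26 ± 0.24, 0.15 ± 0.20 and 0.12 ± 0.19.

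Of 17 quiescence and growth arrest genes, 9 passed the filter on low counts, so the list is described by those alone. Their median was -1.53, with 5 lower and 1 higher in all 3 experiments. Without experiment 3 the median was -0.56. Btg2, an antiproliferative protein, had 54.1, 98.8 and 116.2 CPM in Myc-positive sums, against 199.2, 119.9 and 613 CPM in Myc-negative sums (-1.53 ± 0.45), and its relative Btg1 had 48.9, 18.8 and 18.1 CPM in Myc-positive sums, against 120.5, 169.02 and 210.6 CPM in Myc-negative sums (-2.68 ± 0.59). Both lay lower in Myc-positive sums without overlap. Gadd45b, a stress-induced gene, also lay lower without overlap, with 40.9, 52.3 and 20.2 CPM in Myc-positive sums, against 78.8, 62.5 and 73 CPM in Myc-negative sums (-1.01 ± 0.61). Gpr183, the oxysterol receptor EBI2, went the other way, with 69, 40.1 and 63.7 CPM in Myc-positive sums, against 27.8, 34.9 and 25.1 CPM in Myc-negative sums. It was higher in each experiment without overlap (0.96 ± 0.70, edgeR unadjusted p = 0.216), but in G1 cells alone its fitted ratio was -6.55.

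The lowest unadjusted p values of the whole test belonged to 2 genes outside the lists, named here after their values were seen. Vim, on chromosome 2 (bases 13574311 to 13582826), encodes the intermediate filament vimentin and had 18.5, 40.4 and 17.2 CPM in the Myc-positive sums of experiments 1, 3 and 4, against 341, 417 and 275 CPM in the Myc-negative sums. The log2 ratio was -3.85 ± 0.33 (edgeR unadjusted p = 1.76e-05, adjusted p = 0.157). After thinning to equal counts, Vim was detected in 11 Myc-positive cells (17.5%) and in 76 Myc-negative cells (45.8%), and before thinning in 17.5% and 47.6%. Apoe, on chromosome 7, encodes the lipid carrier apolipoprotein E and had 62.5, 212.5 and 118.9 CPM in Myc-positive sums, against 634, 1099 and 651 CPM in Myc-negative sums (-2.72 ± 0.27, edgeR adjusted p = 0.211). It was detected after thinning in 39.7% of Myc-positive and 70.5% of Myc-negative cells. Both genes are also expressed by macrophages, and whether RNA of other cell types contributed was not tested. Of 9 myeloid markers, 7 were at 0 in every Myc-positive cell, and no cell of either class had 3 or more of them. Among Myc-negative cells Csf1r was detected in 2 and C1qb in 1. Their summed level was 0 to 7.10 CPM in Myc-positive and 0 to 1.95 CPM in Myc-negative sums. No Myc-positive cell and 1 Myc-negative cell had 3 or more of 8 T cell markers. Among Myc-negative cells Cd3e was detected in 2, and Cd3d, Cd3g, Cd4 and Cd8a in 1 each. Cd3d, Cd3e, Cd3g, Cd4, Cd8a and Il7r were at 0 in every Myc-positive cell, and the summed level of 111.2 to 221.2 CPM in Myc-positive and 132.8 to 264.1 CPM in Myc-negative sums was nearly all Lck. Plasma cell markers summed to 514 to 974 CPM in Myc-positive and 662 to 1052 CPM in Myc-negative sums, and Prdm1 was at 0 in all cells of both classes.

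The partners and antagonists of MYC had no common direction. Of 15 genes of the network, 11 were tested. Their fitted median was -0.54, while the medians of experiments 1, 3 and 4 were 0.40, -0.27 and 0.14 and so differed in sign. Max had 155.8, 12.2 and 25 CPM in Myc-positive sums, against 116.8, 41 and 17.9 CPM in Myc-negative sums (-0.24 ± 0.67), the antagonist Mxd4 12.1, 65.2 and 51.3 CPM in Myc-positive sums, against 42, 27.8 and 76.3 CPM in Myc-negative sums (-0.39 ± 0.86) and the antagonist Mnt 11.3, 0.762 and 0.302 CPM in Myc-positive sums, against 8.19, 10.1 and 0.179 CPM in Myc-negative sums (-0.77 ± 2.20). Mycbp2, Mlx and Zbtb17, the last of which encodes the MYC partner MIZ1, had log2 ratios of -0.61 ± 1.13, 2.31 ± 1.80 and 2.32 ± 1.72. Genes of the BCL2 family had a median of 0.029 over 10 tested genes (of 13), and cytokine signaling genes 0.34 over 19 (of 21), which became -0.048 in the sums of all light zone cells over 4 experiments.

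At the level of single cells the classes overlapped. The authors' table gives each cell a MYC target score, whose genes are not given in the sources used here. Whether Myc, which chose the classes, is among them is thus not known. The median score was 0.771, 0.982 and 0.719 in Myc-positive cells of experiments 1, 3 and 4, and 0.0935, 0.0361 and -0.0412 in Myc-negative cells. Of the Myc-negative cells, 15 (9.04%) scored at or above the median of the Myc-positive cells of their experiment, and 8 of 63 Myc-positive cells scored at or below the Myc-negative median. The summed level of ribosome biogenesis genes per cell had medians of 14939, 20974 and 19939 CPM in Myc-positive cells and 6058, 8600.4 and 9792 CPM in Myc-negative cells, and 16 Myc-negative cells (9.64%) reached the Myc-positive median. The 9 cells with a Myc count under the threshold had medians nearer to those of the Myc-positive than of the Myc-negative cells in both measures. Their median score was 0.720 in experiment 1 and 0.822 in experiment 3, and 8 of the 9 lay at or above the Myc-negative median. Single cells varied. The cell with 6 Myc counts and 9.01 CPM in experiment 1 scored -0.175. Of the cells with 1 Myc count there, 1 scored 0.149 and another 1.07.

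**Figure D5:**
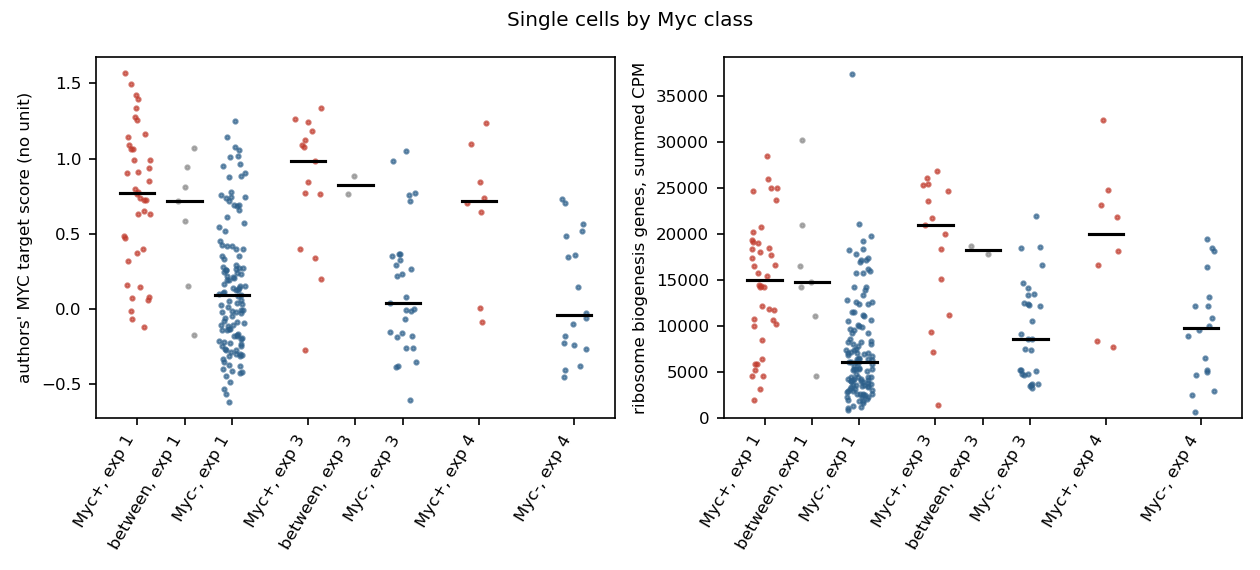
Authors' MYC target score (left, no unit) and summed CPM of 65 ribosome biogenesis genes (right) in single cells of experiments 1, 3 and 4 (exp 1, 3 and 4). Red points are Myc-positive cells, grey points cells with Myc below 50 CPM, blue points Myc-negative cells, and black bars medians. The score medians of Myc-positive cells are 0.771, 0.982 and 0.719, against 0.0935, 0.0361 and -0.0412 in Myc-negative cells.

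For these cells, sort intensities (arbitrary units) are given for experiments 3 and 4 only, so a sign-flip test cannot go below p = 0.5. CD83 protein had a median of 6324 in Myc-positive and 3745 in Myc-negative cells of experiment 3, and 5839 and 4501 in experiment 4 (exact permutation p = 0.5). It was higher in Myc-positive cells both times, while Cd83 mRNA was not. Single cells overlapped widely, from 2957 to 8022 in Myc-positive and 747 to 12734 in Myc-negative cells of experiment 4. CXCR4 went in opposite directions, with log2 ratios of the medians of 0.34 in experiment 3 and -1.08 in experiment 4. FUCCI, a fluorescent reporter of the cell cycle, had log2 ratios of 1.12 in experiment 3 and -0.058 in experiment 4. The antibodies that set the zone gate are not given in the labels.

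The same split was then made in light zone cells that had no part in choosing the members. These were Dec- cells of 12 h from experiment 1 (13 Myc-positive, 64 Myc-negative), Dec+ cells of 30 to 60 h from experiment 3 (14 and 40) and experiment 4 (14 and 26), and cells of all genotypes from experiment 5 (24 and 95). Times were pooled within the sets of experiments 3 and 4, and genotypes within that of experiment 5. Myc-positive shares differed between them, as with 45.5% at 30 h and 23.5% at 46 h in experiment 4. The classes of such a set thus also differ in their make-up of times or genotypes, which was not separated from Myc. Medians of the growth lists over these sets were above 0, but not in every set for each list. Ribosome biogenesis genes had a median of 0.86 over all 4 sets, with 0.87, 1.13, 0.74 and 0.68 in the sets of experiments 1, 3, 4 and 5. Of its members 28 of 65 were higher in all 4 sets, as were 8.18% of genes, and 6 of 14 MHC class II genes were lower in all 4, as were 9.86% of genes. Purine and pyrimidine synthesis had 0.65, one-carbon metabolism 0.57, glycolysis 0.58 and chaperonins 0.55, beside -0.15 over all 9064 genes. Translation initiation factors had 0.46 and aminoacyl tRNA synthetases 0.51. Polyamine metabolism had 0.34, with 0.33, 0.52, 0.87 and -0.046 in the 4 sets, and amino acid transport 0.12, with 0.80, 0.28, -0.10 and 0.25. NF-kB and CD40 genes had 0.27, with 0.96, 1.20, -0.77 and 0.27, and 2 of 25 were higher and 2 lower in all 4 sets. MHC class II genes had -0.59, B cell markers -0.59 and cytosolic ribosomal proteins -0.055. Mitosis genes stood at 0.75, with 1.49, -0.20, 1.09 and 0.64 in the 4 sets. Here too 0 genes had an edgeR adjusted p under 0.05 (0% called), while 294 were higher and 319 lower at unadjusted p under 0.05 (3.24% and 3.52%). DESeq2 was not run on these sets.

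Of the genes higher at unadjusted p under 0.05 in the Dec+ cells of 12 h and tested in both, 84.4% were also above 0 in the other light zone cells, where 43.9% of all 8626 shared genes were. Of the 274 lower genes, 88.7% were below 0, where 56.1% of all shared genes were. The sets of experiments 1, 3 and 4 shared their experiment with Dec+ cells of 12 h, so these comparisons are not independent. In both comparisons at unadjusted p under 0.05 were 82 higher genes (32.8% of the first list and 28.1% of the second) and 71 lower genes (25.9% and 23.7%). Srm had a log2 ratio of 2.27 ± 0.30 in these cells (edgeR unadjusted p = 6.61e-05), Ncl 1.005 ± 0.20, Hspd1 1.4 ± 0.22 and Apoe -2.09 ± 0.45. Vim and Sat1 had smaller ratios there, with -0.90 ± 0.41 and -0.44 ± 0.23, and Traf1 changed sign, with -0.21 ± 0.35. All stood among the lowest unadjusted p values of the Dec+ cells of 12 h. That choice favours large ratios in those cells, and so large differences from the other cells. In the Dec- cells of experiment 1, Sat1 had 328 CPM in the Myc-positive and 260.1 CPM in the Myc-negative sum, the opposite direction. Vim had 339 and 278.4 CPM there, in the same order, and so went the opposite way too. Traf1 was lower in the Myc-positive sums of the sets of experiments 1, 4 and 5. In the set of experiment 3 it was higher, with 258.1 against 140.5 CPM. The difference of the ratio between the Dec+ cells of 12 h and the other cells was -2.94 ± 0.59 for Vim, 2.04 ± 0.49 for Traf1 and -1.41 ± 0.33 for Sat1. Across 8896 genes, 0 such differences passed an edgeR adjusted p of 0.05 and the lowest adjusted p was 1.00.

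With all light zone cells in the same fit, a step chosen after seeing the data, single genes passed the threshold. In 4 pairs of sums, 1 for each of experiments 1, 3, 4 and 5, Srm rose, with a log2 ratio of 2.02 ± 0.17 (edgeR adjusted p = 0.0255), 1 of 9618 genes tested (0.0104% called higher, 0% lower). In 7 pairs, 1 for each set, 28 of 8896 genes rose (0.315% called) and 11 fell (0.124%), but sets of the same experiment are not independent, so these p values are too small. Among the 28 were Srm (2.05 ± 0.21, edgeR adjusted p = 0.00594), Hspd1 (1.31 ± 0.14), Ncl (1.08 ± 0.12), Npm1 (1.02 ± 0.15), Nop58 (1.02 ± 0.16), Mybbp1a (1.11 ± 0.19), Ldha (0.74 ± 0.13), Batf (1.99 ± 0.36) and Ccnb1 (1.46 ± 0.21). By list these 28 included 4 of 65 ribosome biogenesis genes and 5 of 30 chaperonin and import genes. The nuclear transport factors Ran (0.73 ± 0.12), Ipo5 (1.09 ± 0.16) and Ipo4 (1.70 ± 0.32) and the purine enzyme Gart (1.15 ± 0.20) rose too. Among the 11 that fell were Apoe (-2.36 ± 0.31), Cd79b (-0.91 ± 0.15), Btg2 (-1.41 ± 0.25), Anxa2 (-1.29 ± 0.23) and Siglecg (-1.73 ± 0.31), an inhibitory receptor of B cells. Cells labelled TA, KO and WT were pooled in the set of experiment 5. The 4 pairs also pooled Dec+ with Dec- cells in experiment 1, and cells of 12 h with later cells in experiments 3 and 4.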

How the data were processed

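The authors deposited a table with the expected counts of each gene in each well (25125 genes), without normalization, which served the main comparison. Cells of experiment 5 came from a second count table (15177 genes). Fits that included experiment 5 were limited to the 11226 genes in both. Tables per experiment (58762 genes) served an alternative. Software named in the submitters' processing notes is STAR 2.6, RSEM 1.3.1 and Seurat 3.1.4, and the build is mm10; what each did is not stated. A further table of the authors lists for every cell their MYC target score, the percent of mitochondrial reads, the sort intensity in arbitrary units, phases and zone flags. Of the 1220 columns of the first count table, 261 matched no single well and were not used.

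Each cell took its group from the labels. Of 238 Dec+ light zone cells of 12 h (166, 46 and 26 in experiments 1, 3 and 4), 63 were Myc-positive, 166 Myc-negative (119, 29 and 18) and 9 in between, so 229 cells entered the comparison. CPM are counts scaled to 1000000 counts of the cell or sum. Expected counts were summed over the cells of a class and experiment, rounded and tested in edgeR 4.0.16 after filterByExpr and TMM with glmQLFit and glmQLFTest (limma 3.58.1, R 4.3.3), with Benjamini-Hochberg adjustment over all genes except Myc and a threshold of 0.05. The 6 sums left 2 residual degrees of freedom. SE is the log2 ratio divided by the root of F. Ratios per experiment used a pseudocount of 1 CPM. The test was checked on simulated counts. The pairing comes from the plates, since both classes of an experiment shared them, except 1 plate of experiment 4 that gave 0 Myc-positive and 5 Myc-negative cells. Deviations of the 2 sums from their class means correlated across 8945 genes at r = 0.325, 0.134 and 0.0835 in experiments 1, 3 and 4.

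Genes named in the text were to be the largest changes past the threshold (none passed), in each list without a gene past it the up to 4 members of highest mean CPM, and a fixed panel of 35 genes. Members of lists given by counts, medians or summed levels alone are not named, and 2 further genes are not reported here. Members, lists (31, with 829 entries) and rules were chosen with earlier results of these data known. Alternatives were DESeq2 1.42.0, RLE scaling, no filter, no block, leaving out each experiment, other Myc thresholds, G1 cells, mean CPM with limma, tables per experiment and sums per plate. Chosen after seeing the data were thinned cells, S phase cells, removal of 2 cells marked for neither zone, and both fits of all light zone cells. No doublet caller was run on these sorted wells.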

Additional observations from a re-analysis of the deposited data

Results flagged for a closer look

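In the light zone cells outside the Dec+ 12 h group, the median log2 ratio of dark zone genes between Myc-positive and Myc-negative cells was -0.60 in the Dec- cells of experiment 1, far from -0.19, -0.18 and -0.16 in the sets of experiments 3, 4 and 5. It was marked because its gap to the nearest set exceeded Dixon's 95% critical value for 4 values. Of 29 lists looked at in this way, this was the 1 marked, and chance marks about 1 in 20. In the Dec+ cells of 12 h the medians of the same list were -0.77, -0.87 and -0.55 in experiments 1, 3 and 4.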

How the results depend on the processing

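The edgeR counts of 0 higher and 0 lower genes in the Dec+ cells of 12 h were also 0 with RLE scaling, without the filter on low counts, at both other Myc thresholds, in G1 or S phase cells alone, with the tables per experiment, with sums per plate and without the 2 cells marked for neither zone. DESeq2 called 359 higher and 444 lower. The fit of 4 experiments called 1 higher, and that of 7 sets 28 higher and 11 lower. Mean CPM with limma and thinned cells each called 1 lower gene, Apoe. Leaving out each experiment in turn gave 0 to 0 higher and 0 to 2 lower genes. Without the replicate block 0 genes were called in either comparison, and 269 of 8944 had an unadjusted p under 0.05, against 534 with it. In the other light zone cells, leaving out each set gave 0 calls. Leaving out each experiment moved the G1 difference between -28.8 and -23.6 points and the S difference between 19.7 and 31.1 points. The log2 ratio of median intensities then spanned -1.08 to 0.34 for CXCR4, -0.058 to 1.12 for FUCCI and 0.38 to 0.76 for CD83. CXCR4 and FUCCI medians differed in sign between experiments. No cell had fewer than 60000 counts or marks for both zones, so those alternatives removed nothing.

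Over 16 alternatives the median log2 ratio of ribosome biogenesis genes lay between 0.33 and 1.09, that of chaperonins and import factors between 0.34 and 0.82, of NF-kB and CD40 genes between 0.094 and 1.19, and of MHC class II genes between -0.48 and -0.31. Of the medians and counts of lists and results, 494 stayed within the spread between experiments or, for counts, within 1.5 times, and the others moved. A mean over experiments cannot move beyond that spread when 1 experiment is left out. Some single genes turned direction, and the cause was not tested. None of them passed the edgeR threshold in the Dec+ 12 h comparison, but Nop58, Mybbp1a and Anxa2 passed it in the 7 sets. DESeq2 called these genes and also Nfkb1 and Gars on the Dec+ 12 h sums. Under the alternatives the log2 ratios were as follows. With 1 experiment left out, Max spanned -0.66 to 0.45, Mxd4 spanned -1.18 to 0.30, Mnt spanned -1.50 to 0.58, Ccnd3 spanned -0.0073 to 0.31, Cd83 spanned -0.22 to 0.23, Foxo1 spanned -3.98 to 0.11, Mki67 spanned -0.046 to 0.10, Slc38a1 spanned -0.28 to 0.29, Slc1a5 spanned -0.34 to 0.015, Slc7a1 spanned -0.027 to 1.48, Eif5 spanned -0.056 to 0.22, Vars spanned -0.13 to 0.33, Mcm7 spanned -0.34 to 0.10, Top2a spanned -0.15 to 0.97, Mef2b spanned -0.43 to 0.34, Zfp36l1 spanned -0.19 to 0.29, Dusp2 spanned -0.24 to 0.039, Zfp36 spanned -0.14 to 0.21, Tnfrsf13c spanned -0.15 to 0.048, Cdk2 spanned -0.063 to 0.16, Mycbp2 spanned -1.75 to 0.66, Klhl6 spanned -0.062 to 0.66, Irf8 spanned -0.46 to 0.0053 and Pou2af1 spanned -0.030 to 0.30. Without the replicate block, Max 0.16, Slc38a1 0.031, Zfp36l1 -0.16, Cdk2 -0.041 and Mycbp2 0.18. In G1 cells alone, Max 0.037, Irf4 -0.21, Mki67 -2.10, Nop58 -0.96, Ahcy -0.018, Vars -0.37, Dars -0.0032, Mcm7 0.21, Mybbp1a -0.051, Zfp36l1 -0.25, Dusp2 0.72, Zfp36 -0.96, Tnfrsf13c 0.044, Gpr183 -6.55 and Klhl6 -0.79. With sums per plate, Ccnd3 -0.31, Slc38a1 0.39, Slc1a5 0.29, Vars -0.0023, Mcm7 0.15, Zfp36l1 -0.28, Zfp36 -0.20, Tnfrsf13c 0.24 and Cdk2 -0.41. With cells thinned to equal counts, Ccnd3 -0.012, Mki67 -0.044, Slc38a1 0.040, Eif5 -0.023, Vars -0.0084, Mcm7 0.13, Mef2b 0.024, Zfp36l1 -0.071, Dusp2 0.039 and Zfp36 -0.24. Without the filter on low counts, Cd83 -0.00049. Without the 2 cells marked for neither zone, Cd83 -0.037, Zfp36l1 -0.019 and Zfp36 -0.026. In S phase cells alone, Nfkb1 -0.66, Paics -0.0024, Slc38a1 0.43, Gars -0.10, Mcm5 -0.014, Top2a -0.027, Anxa2 0.11, Gcsam 0.089, Mef2b 0.32, Tnfrsf13c 0.22 and Mycbp2 1.29. With any Myc count as positive, Mki67 -0.0033, Zfp36l1 -0.028, Dusp2 0.53, Zfp36 -0.078 and Cdk2 -0.0087. With mean CPM and limma, Slc38a1 0.053, Mcm7 0.087, Mef2b 0.031, Zfp36l1 -0.10, Zfp36 -0.046 and Tnfrsf13c 0.0036. In the 4 experiments, Slc38a1 0.029, Mcm7 0.24, Zfp36l1 -0.26, Zfp36 -0.21, Tnfrsf13c 0.055, Zbtb17 -0.19 and Mef2c -0.030. In the 7 sets, Eif5 -0.0038, Mcm7 0.19, Zfp36l1 -0.29, Zfp36 -0.24 and Mef2c -0.043. At a Myc threshold of 100 CPM, Tnfrsf13c 0.063. At this depth 11 of 23 immediate early genes passed the filter on low counts, and the others could not be tested. The class of 8 Myc-positive cells in experiment 4 is the smallest.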

Other observations

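Several further genes stood among the 20 lowest unadjusted p values of the Dec+ 12 h comparison, taken over genes with a mean of at least 20 CPM, or passed the threshold in the 7 sets. They were named after their values were seen, and all but C1qbp stand outside the lists. In the Dec+ 12 h comparison itself none passed the edgeR adjusted threshold. Iqgap1, a scaffold that binds actin, had 182.8, 167.04 and 307 CPM in the Myc-positive sums of experiments 1, 3 and 4, against 423, 381 and 875 CPM in the Myc-negative sums (-1.30 ± 0.20). Cnn2, calponin 2, had 591, 734 and 667 CPM in Myc-positive sums, against 1159.8, 1534 and 1233 CPM in Myc-negative sums (-0.97 ± 0.16), and Tmsb4x, which sequesters actin monomers, had 102.1, 517 and 362 CPM in Myc-positive sums, against 199.5, 916 and 702 CPM in Myc-negative sums (-0.91 ± 0.19). Crip1 and the tetraspanin Cd53 had log2 ratios of -1.74 ± 0.33 and -1.03 ± 0.16. Aldh2, mitochondrial aldehyde dehydrogenase, had 26.7, 26.7 and 7.54 CPM in Myc-positive sums, against 151.96, 189.9 and 103.7 CPM in Myc-negative sums (-3.02 ± 0.49), and in the other light zone cells -0.65 ± 0.30.

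The lambda light chain constant gene Iglc1 had 391, 1713 and 1059 CPM in Myc-positive sums, against 747, 4779 and 3166 CPM in Myc-negative sums (-1.33 ± 0.18). Its near-identical copies can share reads, and which cells carry lambda chains was not examined, so a difference in clones cannot be told apart from a difference in level. The nuclear noncoding RNA Malat1 had 506, 252.6 and 684 CPM in Myc-positive sums, against 913, 448 and 1291 CPM in Myc-negative sums (-0.86 ± 0.16), and it fell in the 7 sets (-1.12 ± 0.21, edgeR adjusted p = 0.0493). C1qbp, a mitochondrial matrix protein that belongs to the list of chaperonins and import factors, was higher, with 561, 1100.0 and 807 CPM in Myc-positive sums, against 309.6, 485 and 385 CPM in Myc-negative sums (1.04 ± 0.18). Ppid, a cyclophilin, had 244.7, 166.03 and 245.6 CPM in Myc-positive sums, against 72.8, 52.4 and 99.6 CPM in Myc-negative sums (1.58 ± 0.30).

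In the light zone cells of experiment 5, whose sort recorded other channels, Myc-positive and Myc-negative cells had nearly equal medians of forward scatter (99242 and 98331) and of CD86 (1188 and 1201), in arbitrary units. Their ranges overlapped. Genotypes were pooled there, and no test was made with 1 experiment.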
